A study of Rattus norvegicus with 8 samples.

Results

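The genes of the small ribosomal subunit were examined in rat whole blood before and after Chios mastic gum (CMG) administration. They were taken as every row of the count table whose gene name is Rpsa or Rps followed by a number and at most further small letters, which gave 32 of the 17446 genes. CMG is the resin of Pistacia lentiscus var. Chia. RNA was sequenced from male wild type Wistar rats in a pair of hypertension models, with 2 libraries before and 2 after CMG in each. The methods give the age of the rats as 12 to 14 weeks and do not state it for each blood draw. All rats of the AngII groups were implanted with a minipump set to deliver Angiotensin II at 0.4 mg/kg per day. The methods rate this pump for 4 weeks and mention no replacement. Rats of the DOCA–HS groups all received deoxycorticosterone acetate at 100 mg/kg once a week together with 0.9% NaCl and 1% KCl in the drinking water. The before libraries were drawn once hypertension was established, at week 1 of AngII or week 3 of DOCA–HS. The after libraries were drawn 4 weeks later, at week 5 or week 7, and came from rats given CMG at 220 mg/kg per day by gavage over those 4 weeks. No library from rats kept on saline was analysed here, so CMG cannot be told apart from 4 further weeks of the model and of age. In AngII rats the week 5 draw also came after the rated 4 weeks of the pump, which cannot be told apart from CMG either. Neither the labels nor the methods say whether libraries came from separate rats, and the tests measure only the spread between these libraries.

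The small subunit of the ribosome binds the messenger RNA, scans for the start codon together with the initiation factors, and reads the codons while the large subunit joins the amino acids. Each of its proteins is normally present in a single copy per particle and is named uS where bacteria share it and eS where they do not. In blood, these messengers are abundant in lymphocytes and in reticulocytes, the young red cells that still make globin. Loss of a single copy of several of these genes causes Diamond–Blackfan anemia, a failure of red cell production.

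Messengers of ribosomal proteins typically begin with a C followed by a run of pyrimidines, the terminal oligopyrimidine tract through which mTORC1 and Larp1 control their translation. The RefSeq table of promoters (build GRCr8, whereas the counts were made on rn6) held 26 start sites for 25 of the 32 genes. A C followed by at least 4 C or T bases began within 5 bases of 16 of these 26 start sites (61.5%), against 17.0% of all 33469 start sites of the table. Windows of 30 bases, 10 before the annotated start and 20 from it, are shown for genes whose values are described below, because the tract is the sequence feature the family shares. Capitals mark the tract, and a line without capitals held none near its start. The windows lie at chr7:10068096-10068125 (minus strand, Rps15), chr2:177964587-177964616 (minus strand, Rps27), chr6:50999426-50999455 (minus strand, Rps7), chrX:71342902-71342931 (minus strand, Rps4x), chr1:23500065-23500094 (plus strand, Rps12) and chr8:76443648-76443677 (plus strand, Rps27l).
Rps15: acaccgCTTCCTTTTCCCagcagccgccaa
Rps27: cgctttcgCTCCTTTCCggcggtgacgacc
Rps7: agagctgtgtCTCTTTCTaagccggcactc
Rps4x: cgcgcgcagCCTCCgaccctaatttcttcg
Rps12: gaagcccagcagagcgcttaaataccgtca
Rps27l: ttcatttgtcattatttgtggtgtccagag

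Rps15 and Rps27 held long tracts, Rps4x a short one, and Rps12 and Rps27l none at the annotated start. The annotated start was itself a C followed by at least 4 C or T bases at 7 of the 26 start sites (26.9%), against 2.63% of all. At 6 of these 7 the tract had already begun further upstream. A further 8 motifs were searched on both strands of the whole windows of the table, which run from 250 bases before to 50 bases after the start, and all are given here. CCGGAAG, the core letters of ETS family sites, stood at 8 of the 26 start sites (30.8%) against 8.75% of all start sites, and a longer form of it that overlaps these letters at 5 (19.2%) against 3.35%. The GC box GGGCGG stood at 14 (53.8%) against 33.1%, and CTTTCC, letters that the tract itself can hold, at 13 (50.0%) against 26.4%. AAGATGG, letters of the YY1 motif, stood at 4 (15.4%) against 7.01%, and TATAAA at 3 (11.5%) against 14.2%. A palindrome with CGCG at its centre stood at 4 (15.4%) against 0.373%, and an NRF1-like motif at 0 against 2.47%. These are matches of letters, and no factor's binding was measured.

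Library totals ran from 4149104 to 13205565 counts, of which the hemoglobin genes Hbb and LOC100134871 took 61.9% to 71.0% in 7 libraries and 84.3% in the second DOCA–HS after library. That library held 651764 counts outside hemoglobin, against 2195735 to 4490083 in the others, and 2686 genes with 10 or more counts, against 6097 to 8280. Medians and calls of the DOCA–HS comparison are therefore also given without it. Intervals and detection limits below cover counting error only.

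Of the 32 genes, 29 had at least 10 counts in every library, with 41 to 7167 counts. Rps9 had 0 counts in all 8 libraries, where 3 counts set the limit of detection, and could not be tested. Rps6, the phosphorylation target of S6 kinase, had 20 and 7 counts before and 2 and 15 after CMG in AngII rats, and 17 and 12 before and 7 and 0 after in DOCA–HS rats. Rps27l, a p53-responsive paralogue of Rps27, had 1 to 38 counts. Ribosomal protein genes have many near-identical processed copies in the rat genome, so reads of all these genes may be split among copies or left uncounted, and low counts such as these do not show that a gene is silent. No transcript lengths were at hand, and levels are therefore compared between libraries and not between genes.

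The 32 genes together took 1.86% and 1.76% of the counts outside hemoglobin before CMG in AngII rats and 1.69% and 1.78% afterwards. In the DOCA–HS model they took 2.07% and 1.96% before, and 1.92% and 2.98% after. The share in the second DOCA–HS after library (95% Wilson interval 2.94% to 3.02%) lay above the range of 1.69% to 2.07% of the other 7 libraries. The genes of the large subunit, 48 in the table, moved alike. They took 2.59% to 3.21% in the other 7 libraries and 3.95% in this one. The ratio of small to large subunit counts was 0.624 to 0.696 in the 7 libraries and 0.754 in the second DOCA–HS after library. Relative to all counts, hemoglobin included, the order was different, and the same library held the lowest small subunit share of the 8, at 0.468% against 0.531% to 0.788%.

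**Figure D1:**
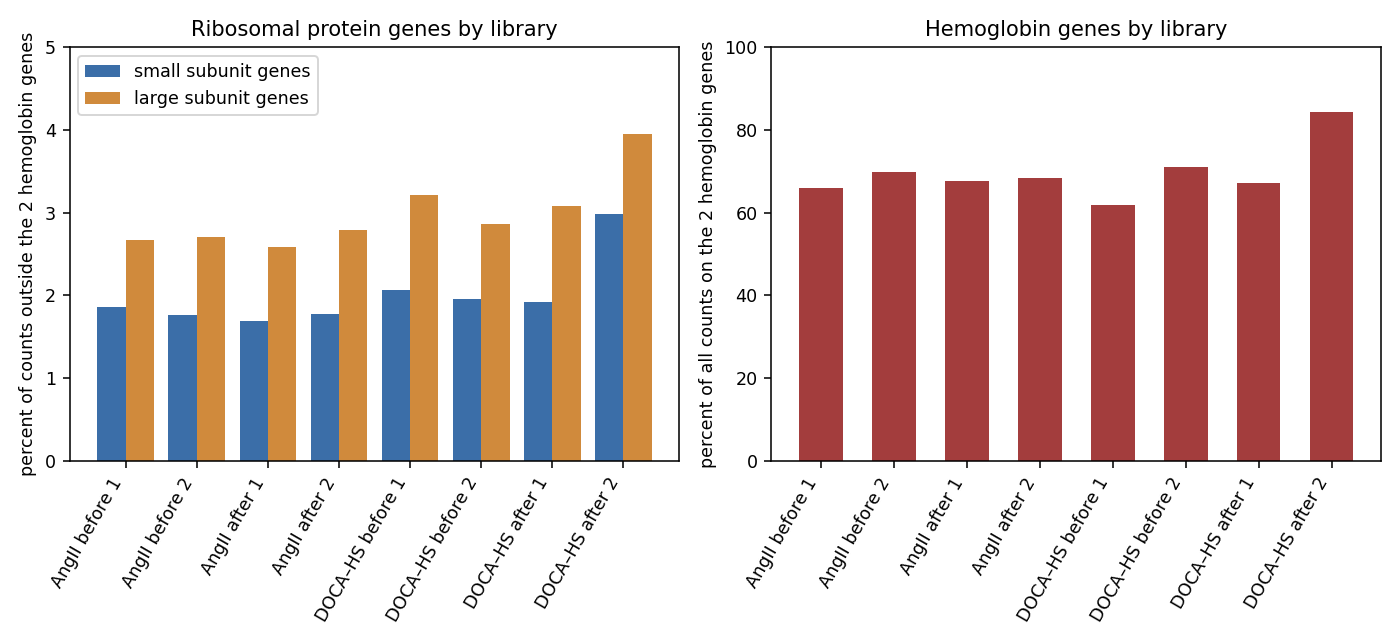
Left, small and large subunit genes as a percent of the counts outside the 2 hemoglobin genes, and right, the 2 hemoglobin genes as a percent of all counts, with 1 bar per library. The second DOCA–HS after library has the highest bar in each group, at 2.98%, 3.95% and 84.3%.

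The first comparison asked which small subunit genes differed after CMG in the AngII model. All 31 tested genes had lower fitted levels after than before CMG, by a median log2 fold change of -0.44, against -0.01 over the 7201 genes tested, of which 49% had a log2 fold change above 0. None was called by the criterion of the study, an absolute log2 fold change above 1.5 with an unadjusted p of at most 0.05, in either direction, where 0.903% of all genes were called up and 0.333% down. With edgeR's quasi-likelihood test the adjusted p (Benjamini-Hochberg) of the genes lay between 0.746 and 0.925, and 0% of all genes passed an adjusted p of 0.05. At an unadjusted p of 0.05, 1 gene was lower and 0 higher, against 1.61% and 5.04% of all genes. DESeq2 called 0 of the small subunit genes, beside 0.667% of all genes called up and 0.25% down, and gave 0 of them at that unadjusted p.

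The common direction depended on the scaling, since scaling to total counts or to counts outside hemoglobin moved the median of the small subunit genes to -0.11 and -0.09, with 6 and 7 of 31 above 0, while the median of all genes moved to 0.36 and 0.38. The distance between the medians was -0.43 with TMM factors, -0.47 with total counts and -0.48 outside hemoglobin. Of all genes called by the criterion, 73.0% were higher after CMG with TMM factors and 94.6% with total counts. It also depended on the libraries: without the second after library the median was -0.25 with 5 genes above 0. Without the first after library it was -0.71 with 22 genes lower at an unadjusted p of 0.05, where 12.5% of all genes were lower too, and 1 at an adjusted p of 0.05, which 3.47% of all genes passed. Without the first before library Rps27l was called lower, beside 0.434% of all genes.

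In 23 of the 31 genes both after libraries lay below both before libraries (74.2%), against 17.6% of all genes, and in 0 genes they lay above, against 22.1%. After scaling to total counts the after libraries lay below in 7 (22.6%, against 4.43% of all genes) and above in 1 (3.23%, against 31.4%). Outside hemoglobin they lay below in 7 (against 4.29%) and above in 0 (against 32.9%). The second after library was the lower of the pair in most genes. The summed level of the 32 genes was 6530 and 6560 CPM (counts scaled to a common library size with the TMM factors of each model) before and 5920 and 4050 after CMG.

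Rps29, a zinc-binding protein of the head and one of the Diamond–Blackfan anemia genes, was measured at 561 and 664 CPM before and 671 and 399 CPM after CMG. The groups overlapped, with an after library both highest and lowest, and its log2 fold change of -0.20 ± 0.44 (SE) was the nearest to 0 of all 31. Rpsa, the uS2 protein also known as the laminin receptor, was at 521 and 584 CPM before and 518 and 313 CPM after (-0.41 ± 0.43).
Rps12, an eS protein of the beak of the head, was at 296 and 296 CPM before and 323 and 189 CPM after (-0.21 ± 0.41). Here the after libraries lay on both sides of the before libraries. Rps14, the uS11 protein known from the 5q deletion syndrome, another failure of red cell production, was at 461 and 325 CPM before and 421 and 254 CPM after (-0.22 ± 0.43).
Rps19, the gene most often mutated in Diamond–Blackfan anemia, was at 14.5 and 11.7 CPM before and 13.3 and 9.32 CPM after (-0.23 ± 0.32), again with overlap. Rps26, which contacts the messenger upstream of the codon being read, was at 84.8 and 98.1 CPM before and 69.5 and 75.7 CPM after (-0.33 ± 0.32), with no overlap.

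The lowest log2 fold changes belonged to Rps27l, Rps6, Rps27 and Rps15a. Rps27l was at 1.57 and 3.24 CPM before and 0.799 and 1.02 CPM after, from 20, 20, 5 and 14 counts (-1.29 ± 0.55, unadjusted p = 0.0477 and adjusted p = 0.746 with edgeR). Rps6, at 1.57 and 1.13 CPM before and 0.320 and 1.09 CPM after, rested on equally few counts (-0.80 ± 0.66). Rps27, whose paralogue Rps27l is, was at 166 and 213 CPM before and 132 and 97.8 CPM after, without overlap (-0.72 ± 0.37). Rps15a, the uS8 protein, was at 118 and 135 CPM before and 87.9 and 67.7 CPM after (-0.70 ± 0.34), also without overlap. Rps4x, the X-linked eS4 gene, was at 198 and 187 CPM before and 187 and 126 CPM after (-0.30 ± 0.37). Rps27a, whose product is made as a fusion with ubiquitin, was at 140 and 170 CPM before and 132 and 96.4 CPM after (-0.44 ± 0.36). Rps7, a protein of the body of the subunit, gave -0.45 ± 0.34. Standard errors of the 31 genes ran from 0.319 to 0.663, and 1 of the 31 had a log2 fold change of -1 or less.

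The second comparison asked the same in the DOCA–HS model. Fitted levels were higher after than before CMG in 27 of the 31 tested genes with TMM factors, with a median log2 fold change of 0.69 against -0.04 over the 7720 genes tested (47.5% of them above 0), whereas total counts gave a median of -0.50 with 4 genes above 0, beside -0.76 over all genes. No gene met the criterion in either direction, where 1.79% of all genes were called up and 0.259% down. By edgeR's quasi-likelihood test with Benjamini-Hochberg adjustment every small subunit gene had an adjusted p of 0.997, 0 had an unadjusted p of at most 0.05 (against 2.73% of all genes higher and 0.44% lower), and the smallest unadjusted p was 0.0502, for Rps12. DESeq2 called 4 of the 31 higher by the criterion, beside 2.73% of all genes, and 0 by adjusted p.

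This direction rested on the second after library. Without it the median of the 31 genes was -0.20, with 11 above 0 and 0 called higher, and Rps27l was called lower, beside 0.586% of all genes. The median of all genes was then -0.02. Without the first after library the median was 1.10, with 29 above 0, and 10 genes were called higher. In that fit 7.46% of all genes were called higher and 13.6% lower, and their median was -0.37. Scaling to the counts outside hemoglobin gave a median of 0.02 with 18 genes above 0, beside -0.41 over all genes, and restricting the fit to genes that reached 10 counts in all libraries gave 0.25 with 21 of 29 genes above 0. Of all genes called, 87.3% were higher with TMM factors, while total counts gave 0 higher and 9 lower.

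Both after libraries lay above both before libraries in 8 genes (25.8%, against 14.8% of all genes) and below them in 2 (6.45%, against 20.9%). Among the 8 were Rps12, Rps2, Rps23, Rps29, Rps3a, Rps4x and Rpsa, and the 2 were Rps27l and Rps6, whose counts of 1 and 0 in the second after library lie under the limit of detection. Scaled to total counts, 0 lay above (against 1.4% of all genes) and 16 below (51.6%, against 23.9%). Outside hemoglobin, 4 lay above (12.9%, against 6.46%) and 8 below (25.8%, against 27.9%). With TMM factors the summed level of the 32 genes was 4270 and 5000 CPM before and 4460 and 14000 CPM after CMG.

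Rps29 was measured at 339 and 404 CPM before and 420 and 2420 CPM after CMG. The first after library lay just above the before pair and the second far above it, so that the after mean was 1420 ± 1410 CPM (SD, n = 2) against 372 ± 46.2 CPM before, and the log2 fold change was 1.93 ± 0.90 (SE). Rpsa was at 351 and 360 CPM before and 387 and 1790 CPM after (1.62 ± 0.83). It showed the same arrangement of libraries as Rps29. With total counts Rps29 gave 0.376 and Rpsa 0.123, beside a median of -0.759 over all genes. Outside hemoglobin they gave 1.11 and 0.821, beside -0.41. Without the second after library they gave 0.187 and 0.132, beside -0.0159. Rps12 was at 172 and 182 CPM before and 279 and 767 CPM after (1.56 ± 0.68). In this gene the first after library was also clearly above the before pair, and leaving out the second left a log2 difference of 0.66. Rps14 was at 199 and 317 CPM before and 251 and 1140 CPM after (1.42 ± 0.81), and Rps27a at 94.4 and 110 CPM before and 107 and 353 CPM after (1.16 ± 0.67). In both, the first after library lay between the before libraries.

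Rps4x was at 144 and 157 CPM before and 159 and 167 CPM after (0.11 ± 0.52), so that its 4 libraries lay close together. Rps2, the uS5 protein at the messenger entry channel, was at 227 and 227 CPM before and 281 and 470 CPM after (0.72 ± 0.59). Rps3a, the eS1 protein near the messenger exit, was at 140 and 140 CPM before and 148 and 227 CPM after (0.41 ± 0.54). In these 3 genes the after libraries were both above the before libraries, with less distance between the after libraries than in Rps29.
Rps19 was at 11 and 16.5 CPM before and 9.28 and 29.4 CPM after (0.41 ± 0.61), Rps26 at 70.7 and 85.8 CPM before and 62.7 and 197 CPM after (0.72 ± 0.64), and Rps27 at 164 and 186 CPM before and 115 and 298 CPM after (0.23 ± 0.62). For these 3 the after libraries were at once the lowest and the highest of the 4. Rps15a was arranged likewise, at 82.5 and 115 CPM before and 63.0 and 179 CPM after (0.28 ± 0.63).

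Rps7 was at 138 and 158 CPM before and 118 and 175 CPM after (-0.02 ± 0.53). Its after libraries also lay on both sides of the before libraries. Rps27l was at 2.14 and 1.29 CPM before and 0.546 and 0.718 CPM after, from 38, 12, 7 and 1 counts (-1.60 ± 0.73, unadjusted p = 0.0577 and adjusted p = 0.997 with edgeR). Rps6 was at 0.958 and 1.29 CPM before and 0.546 and 0 CPM after (-1.21 ± 0.85), where a count of 0 in the last library allows up to 2.15 CPM. That limit is no lower than the before levels of either gene, so the second after library cannot be placed below them.

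Taking each after library against each before library showed where the differences lay. In the AngII model the median log2 difference of the 31 genes was -0.21 and -0.27 for the first after library and -0.65 and -0.69 for the second, against before libraries 1 and 2 in turn. In the DOCA–HS model it was -0.04 and -0.35 for the first after library and 1.28 and 0.98 for the second. The median of all tested genes in the last 2 pairings was -0.33 and -0.29. In those pairings 29 of the 31 genes were above 0, compared with 15 and 8 for the first after library.

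**Figure D2:**
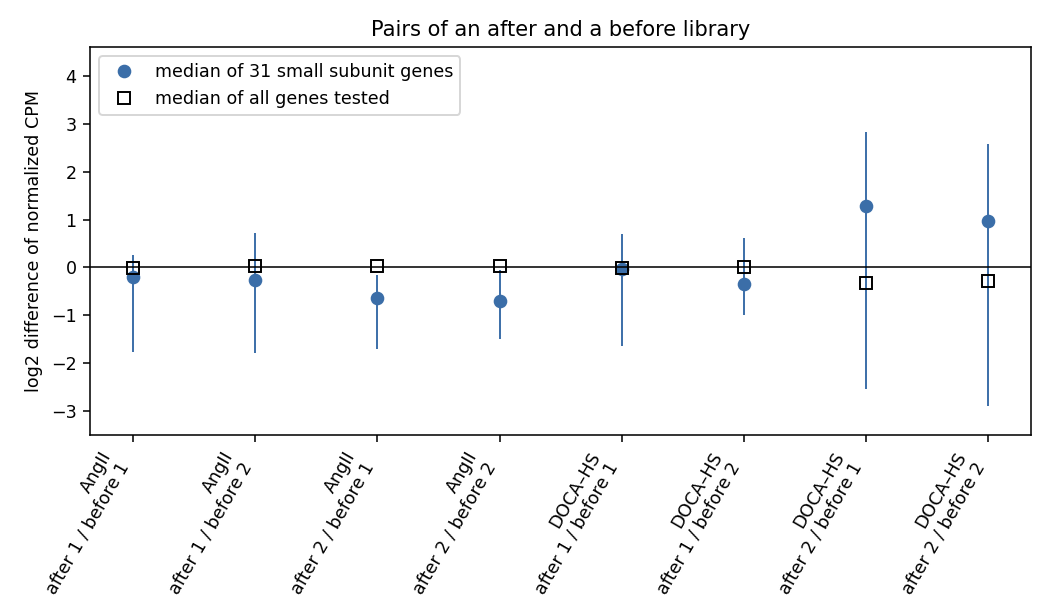
Log2 difference of normalized CPM between each after and each before library, with points at the median of the 31 small subunit genes, lines from their lowest to their highest value, and squares at the median of all tested genes. The pairings of the second DOCA–HS after library reach medians of 1.28 and 0.98, and the other 6 lie between -0.69 and -0.04.

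Expressing each gene as a share of the summed small subunit counts of its library removes the scaling, and this was done after the fold changes had been seen. For the 29 genes that reached 10 counts in all libraries, the SD of the log2 deviation from each gene's mean share over the other 7 libraries was 0.193 to 0.268 in 7 libraries and 0.581 in the second DOCA–HS after library. The large subunit genes there gave 0.636, against 0.140 to 0.328 elsewhere, and all genes with 10 or more counts in every library gave 0.930 against 0.361 to 0.596. Its small subunit profile therefore stood apart together with the rest of its genes. Of the 31 counted genes, 18 had their lowest share of the 8 libraries there, 6 their highest, and 7 a share within the range of the others.

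Rps29 took 17.3% of the small subunit counts of that library (Wilson interval 16.8% to 17.9%), against 7.94% to 11.3% in the other 7 libraries. Rpsa took 12.9% (12.4% to 13.3%), against 7.21% to 8.91%. Rps14, Rps15, Rps21 and Rps28 were the other genes with their highest share there, at 8.15%, 7.77%, 2.05% and 1.19%. These intervals do not reach the shares of the other libraries for Rps29 and Rpsa. Rps4x took 1.19% (1.05% to 1.36%) there, and 3.38% and 3.14% before CMG and 3.56% in the first after library of that model. Rps7 took 1.26% (1.11% to 1.42%), compared with 3.23%, 3.16% and 2.64%. Within a single library the spread between genes of the same particle was thus wide.

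By these shares, both DOCA–HS after libraries lay above both before libraries in 5 genes (16.1%, against 4.02% of all genes scaled the same way), namely Rps12, Rps15, Rps27a, Rps29 and Rpsa. They lay below in 14 (45.2%, against 27.6%). In the AngII model 3 genes lay above (9.68%, against 39.5%), namely Rps12, Rps19 and Rps4x, and 6 below (19.4%, against 2.87%). Small subunit genes are here divided by their own sum, so they cannot all move the same way. Genes outside the subunit are free to move with that sum, so the percentages over all genes are not a like background. Of the small subunit genes only Rps12 lay above in both models, and the share of all genes that did so was not counted. Rps12 took 4.53% and 4.52% before and 5.46% and 4.67% after in AngII rats. There the Wilson interval of the second after library, 4.49% to 4.84%, overlapped those of the before libraries, 4.39% to 4.68% and 4.32% to 4.73%. It took 4.03% and 3.64% before and 6.25% and 5.50% after in DOCA–HS rats, where the intervals after CMG, from 5.18% upward, lay above those before, which reached 4.17%. No test was made of the shares. Across 29 genes, the change of log2 share in the first DOCA–HS after library against the first before library and that in the second against the second had r = 0.56 and rho = 0.57, and 0.18 and 0.15 when the before libraries were exchanged. In AngII rats r was -0.00034 and -0.65. Genes are not independent replicates and the points share library depth, so these values describe these libraries only.

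**Figure D3:**
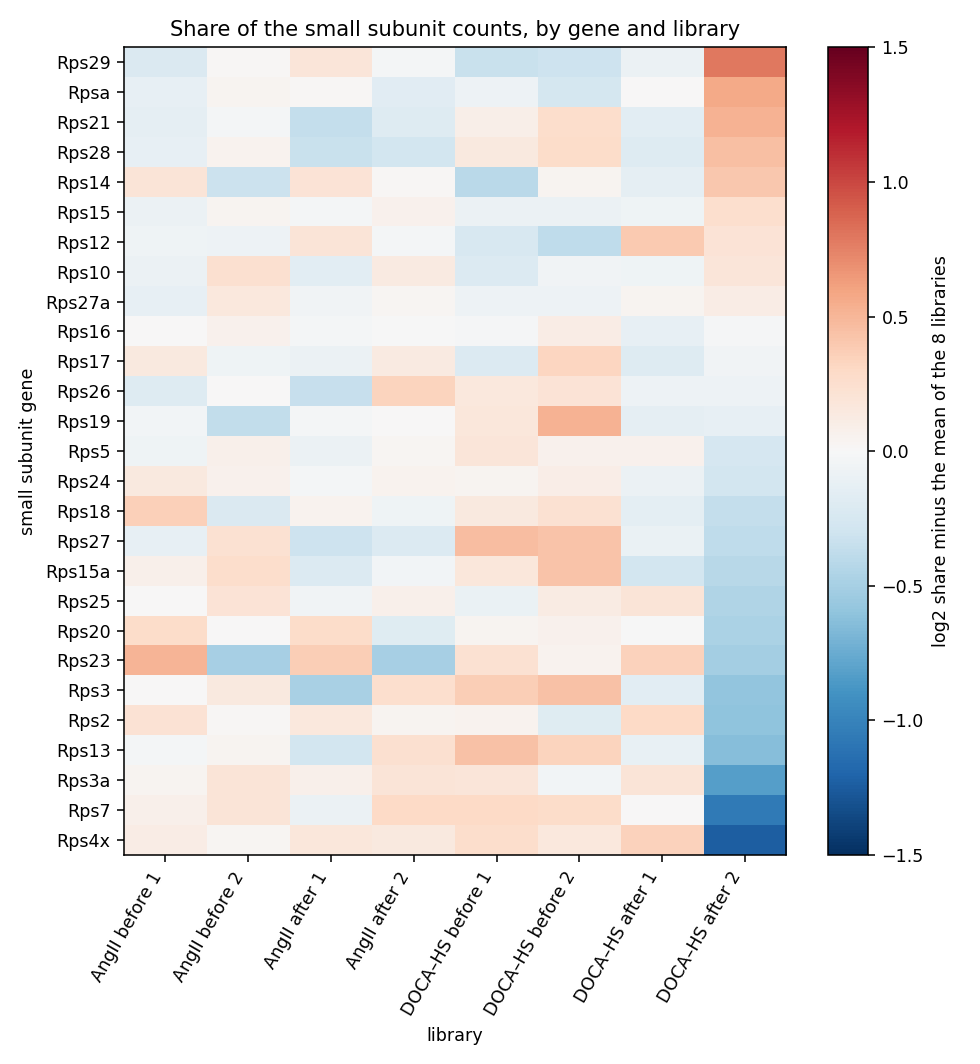
Log2 share of each small subunit gene in the summed small subunit counts, minus its mean over the 8 libraries, for the genes reported here that reached 10 counts in all libraries, ordered by the second DOCA–HS after library. That column runs from -1.23 (Rps4x) to 0.79 (Rps29), whereas the other 7 columns stay between -0.50 and 0.52.

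The third comparison was the difference between the models, the DOCA–HS change minus the AngII change, fitted over all 8 libraries. With TMM factors the median of the 31 genes was 1.07, with 29 above 0, against -0.12 over all 7994 genes (44.5% of them above 0), but it was -0.37 after scaling to total counts and 0.13 outside hemoglobin. The median of all genes then moved to -1.21 and -0.89, so that the small subunit genes stood 1.19, 0.83 and 1.02 above it in turn. Rps12 alone met the criterion, with a log2 difference of 1.79 ± 0.78 (unadjusted p = 0.0440 and adjusted p = 0.881, edgeR's quasi-likelihood test with Benjamini-Hochberg adjustment), and 0 met it downward, beside 2.25% and 0.913% of all genes. It was also the only one with an unadjusted p of at most 0.05, where 2.53% of all genes had a positive and 1.21% a negative difference. DESeq2 called 8 higher, beside 3.60% of all genes. Without the second DOCA–HS after library 0 genes were called, beside 0.930% of all genes called higher, and the median was 0.24 against -0.06 over all genes. Without the first, 17 were called higher and the median was 1.56, where 8.83% of all genes were called higher and 14.4% lower. Rps29 had the largest difference of the 31, at 2.15 ± 1.03 (unadjusted p = 0.0611 with edgeR), and Rpsa followed at 2.05 ± 0.95 (unadjusted p = 0.0549 with edgeR). In the fit over all 8 libraries no small subunit gene passed an adjusted p of 0.05. The log2 fold changes of the 31 genes in the models had r = 0.70 and rho = 0.47, and r = 0.37 and rho = 0.36 over the 29 genes that reached 10 counts in all libraries, so that the first value rests largely on Rps27l and Rps6.

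Within the subunit, 14 genes of the head had a median log2 fold change of -0.44 in AngII and 0.85 in DOCA–HS rats, and 16 of the body and platform -0.43 and 0.51. The 14 tested uS genes gave -0.44 and 0.65, and the 16 eS genes -0.44 and 0.69. The 11 Diamond–Blackfan anemia genes, among them Rps19, Rps26 and Rps24, gave -0.45 and 0.69, with 0 of 11 above 0 in AngII and 10 of 11 in DOCA–HS rats. Over all 31 genes the medians were -0.44 and 0.69. The 15 tested genes with a pyrimidine tract at a start site had medians of -0.44 and 0.69, and the 9 with a start site but no tract -0.44 and 0.41. No gene of any of these groups was called in either model, with the backgrounds given above. Without the second DOCA–HS after library the DOCA–HS medians were -0.11 for the head, -0.26 for the body and platform, -0.11 for uS, -0.26 for eS and -0.32 for the Diamond–Blackfan anemia genes. The genes with a tract then had a median of -0.21 and those without one -0.55.

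Fau and Rack1 encode small subunit proteins under names that the pattern does not match. Fau, whose product is a ubiquitin-like fusion with eS30, was at 207 and 220 CPM before and 229 and 129 CPM after in AngII rats (-0.25 ± 0.40). In DOCA–HS rats it was at 116 and 148 CPM before and 142 and 674 CPM after (1.62 ± 0.78). Rack1, a scaffold for signaling proteins on the head, gave -0.35 ± 0.39 and 0.60 ± 0.61. Neither was called, and the second DOCA–HS after library was the highest of its model for both. Without it Fau gave 0.12 ± 0.42 and Rack1 0.03 ± 0.47.

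The large subunit genes had a median of -0.38 in AngII rats, with 45 of 45 below 0, and 0.52 in DOCA–HS rats, with 39 of 45 above 0. Of them 1 was called lower in AngII rats, beside 0.333% of all genes, and 3 higher in DOCA–HS rats, beside 1.79%. Rplp2, a protein of the stalk that recruits elongation factors, gave -2.84 ± 1.03 and 3.38 ± 0.67, and Rpl38 gave 2.10 ± 0.83 in DOCA–HS rats. The third gene called higher there was Rpl37 (1.91 ± 0.76), named after its values were seen. The list of other genes of the tract class, such as elongation factors, also held Fau and Rack1, the small subunit genes described above. It had medians of -0.40 (17 of 17 below 0) and 0.08 (10 of 17 above 0), and Fau gave its highest DOCA–HS value. Initiation factors that load the small subunit gave -0.31 (22 of 27 below 0) and 0.08 (16 of 27 above 0). Assembly factors of the small subunit gave 0.17 (29 of 42 above 0) and -0.17 (14 of 43 above 0), S6 kinase and mTORC1 genes 0.24 (11 of 16 above 0) and 0.04 (9 of 17 above 0), and the small subunit genes of the mitochondrial ribosome -0.54 (21 of 25 below 0) and -0.17 (10 of 26 above 0). No gene of these last 5 lists was called in either model. Without the second DOCA–HS after library the large subunit median in that model was -0.09, with 14 of 45 above 0. In that fit Rplp2 was at 3.93 ± 0.37, Rpl38 at 0.49 ± 0.42 and Rpl37 at 0.72 ± 0.45. The other tract genes then gave -0.11, initiation factors -0.17, assembly factors -0.17, S6 kinase and mTORC1 genes 0.05 and the mitochondrial small subunit genes -0.33. All these medians are on the TMM scale and move with the scaling.

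Blood cell markers also differed in level between the libraries. Their log2 fold changes here and below are on the TMM scale, whereas their sums are shares of the counts outside hemoglobin. In AngII rats 12 of 12 tested erythroid markers were below 0, with a median log2 fold change of -0.48, and 7 of 8 monocyte markers above 0, with a median of 0.71. Summed erythroid markers were at 87200 and 103000 ppm of the counts outside hemoglobin before and 87700 and 84200 after CMG, so the groups overlapped by that share. The DOCA–HS sums follow. In the DOCA–HS model erythroid markers were at 77100 and 91100 before and 72500 and 127000 after, the last value being the highest of the 8 libraries. By log2 fold change 10 of 12 were above 0 there, with a median of 0.41. Of the 13 erythroid markers, Gata1 was at 0 in the second AngII after library. Summed monocyte markers were at 1230 and 1070 before and 1530 and 2340 after in AngII rats, with Clec4a at 0 in all but the last of these libraries. The medians of the other lists in AngII rats were -0.16 for T cell, 0.15 for B cell, -0.10 for neutrophil and -0.35 for platelet markers.

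T cell markers in DOCA–HS rats were at 1380 and 1020 ppm before and 935 and 344 after, with 0 of 12 above 0, a median of -0.39, and Cd4, Cd5 and Cd28 at 0 in the second after library. B cell markers were at 673 and 394 before and 364 and 90.5 after, with 0 of 9 above 0, a median of -0.89, and Blk at 0 in that library. Platelet markers were at 956 and 1110 before and 2440 and 2080 after, with 5 of 5 above 0 and a median of 1.26. Of these Treml1 (1.92 ± 0.69) and Pf4 (1.72 ± 0.63) were called higher, beside 1.79% of all genes. Gp1bb was at 0 in all 4 libraries, and Gp5 in the second before and the second after library. Neutrophil markers were at 795 and 1900 before and 996 and 1310 after. They were split, with 5 of 11 above 0, a median of -0.07 and a range from -3.27 to 1.27. Ngp was called lower (-3.27 ± 1.05), beside 0.259% of all genes, and Ltf was at 0 in all 4 libraries. Monocyte markers were at 2290 and 2830 before and 2970 and 885 after, with 6 of 8 above 0, a median of 0.34, and Cd14 and Clec4a at 0 in the second after library. Without that library the medians were -0.29 for erythroid, 0.68 for monocyte, -0.33 for T cell, -0.63 for B cell, 1.23 for platelet and -0.92 for neutrophil markers. In that fit 3 of the 11 neutrophil markers were above 0. Ngp then gave -4.42 ± 0.51, while Treml1 (0.88 ± 0.35) and Pf4 (1.32 ± 0.46) lay under the threshold of 1.5. The part of cell composition, and of the depth and hemoglobin share of the second after library, in the values of the small subunit genes was not tested. In whole blood, fewer cells of a type and less RNA per cell cannot be told apart.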

How the data were processed

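RNA of 8 whole-blood libraries was analysed. Single-end reads from a directional kit were aligned by the authors to rn6 with HISAT2 and counted per gene by strand with HTSeq, and the deposited values are these raw counts, with no normalization. The methods state that hemoglobin annotations were removed, yet Hbb and LOC100134871 lead the counts. The table held 17446 genes, 5754 of them with 0 counts in every library.

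Counts were tested with edgeR 4.0.16 in R 4.3.3 (glmQLFit and glmQLFTest on all genes kept by filterByExpr, library sizes of the kept genes, TMM factors), each model alone, and over 8 libraries for the difference. CPM values use the kept library size times the TMM factor. Called means an absolute log2 fold change above 1.5 and an unadjusted p of at most 0.05. Benjamini-Hochberg adjustment ran over all genes tested. Standard errors are the absolute log2 fold change divided by the square root of F. DESeq2 1.42.0, other scalings and filters, a replicate block and leaving out each library were alternatives. Differences between single libraries are on the log2 CPM scale with a prior count of 2. The counts of genes whose libraries do not overlap under other scalings, the shares of small subunit counts, and the gene lists without the second DOCA–HS after library were added after seeing the data. The script was tested on simulated data.

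The small subunit genes and all lists were chosen with earlier results of these data known. Values by library are given for genes called, for the 4 highest and 4 lowest log2 fold changes in each model, and for Rpsa, Rps19, Rps26, Rps6, Rps4x, Rps27, Rps27l and Rps27a by role. Rps2 and Rps3a were added after their values were seen. From each other list at most the 2 called genes with the smallest p are named, and Rpl37 was added after its values were seen. Some genes kept in the fits and counts are not reported here by name. All 32 names matched a GRCr8 RefSeq symbol. Sequences are from RefSeq (GRCr8). Fits that leave a group with 1 library assume that it varies like the others. Both definitions of the pyrimidine tract and all 8 motifs were tried on the same start sites, and the wider definition was chosen for the groups after its matches had been counted.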

Additional observations from a re-analysis of the deposited data

Results flagged for a closer look

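Rps12 met the criterion for a difference between the models, where the DOCA–HS change minus the AngII change was 1.79 on the log2 scale (unadjusted p = 0.0440 and adjusted p = 0.881, edgeR's quasi-likelihood test with Benjamini-Hochberg adjustment). The call was lost in 6 of the 8 fits that left out a library, with total counts (0.23), outside hemoglobin (0.78) and among genes that reached 10 counts in all libraries (1.16). Without the second DOCA–HS after library the difference was 0.89.

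With TMM factors, Rps2, Rps3a, Rps4x and Rpsa differed in direction between the models. Both after libraries lay below both before libraries in AngII rats and above them in DOCA–HS rats. Taken singly, 74.2% of the small subunit genes lay below in AngII rats, against 17.6% of all genes. In DOCA–HS rats 25.8% lay above, against 14.8%. The share of all genes with both patterns was not counted. Without the second DOCA–HS after library the DOCA–HS log2 fold changes were 0.317, 0.0851, 0.0855 and 0.132 in turn. The differences of these genes between the models were 1.14, 0.82, 0.43 and 2.05 on the log2 scale. None met the criterion in the fit of the difference, and the opposite direction itself was not tested. With total counts the differences of Rps2, Rps3a and Rps4x were below 0, beside a median of -1.21 over all genes.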

How the results depend on the processing

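No small subunit gene was called in either direction in AngII rats under the alternatives, except Rps27l by unadjusted p alone (1 gene lower) and when a library was left out (0 to 1 lower). The AngII median was -0.106 with total counts and -0.0939 outside hemoglobin, and -0.714 to -0.254 with libraries left out. The DOCA–HS median was -0.498 with total counts and -0.205 to 1.10 with libraries left out. Genes called higher in DOCA–HS rats numbered 4 with DESeq2, 2 with no filter (2.01% of all genes), 3 with all 8 libraries in 1 fit (1.76%, and 1 lower), and 0 to 10 with libraries left out (0 to 1 lower). For the difference between the models they numbered 8 with DESeq2, 7 with no filter (3.70% of all genes), 0 with total counts, outside hemoglobin, among genes that reached 10 counts in all libraries and by adjusted p, and 0 to 17 with libraries left out. Its median was -0.374 with total counts, 0.13 outside hemoglobin, and 0.242 to 1.56 with libraries left out.

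Directions turned as follows. In AngII rats total counts gave Rps12 0.0847, Rps14 0.0571, Rps19 0.0921, Rps26 0.0621, Rps29 0.112 and Rps4x 0.0145, and outside hemoglobin these were 0.095, 0.0826, 0.114, 0.072, 0.115 and 0.0285. With libraries left out, Rps12 ran from -0.696 to 0.113, Rps14 from -0.677 to 0.0871, Rps19 from -0.541 to 0.00331 and Rps29 from -0.667 to 0.118. In DOCA–HS rats Rps7 was 0.049 with DESeq2 and 0.0498 with its size factors in edgeR. Total counts gave Rps15a -0.922, Rps19 -0.759, Rps26 -0.556, Rps27 -0.965, Rps27a -0.151 and Rps4x -0.661. Outside hemoglobin Rps15a was -0.383, Rps19 -0.211, Rps27 -0.429 and Rps4x -0.335, and among genes that reached 10 counts in all libraries these were -0.174, -0.035, -0.218 and -0.196. With libraries left out, Rps14 ran from -0.0302 to 2.13, Rps15a from -0.640 to 0.846, Rps19 from -0.545 to 1.10, Rps26 from -0.309 to 1.32, Rps27 from -0.596 to 0.758 and Rps7 from -0.322 to 0.236. For the difference, total counts gave Rps2 -0.181, Rps3a -0.498 and Rps4x -0.675, outside hemoglobin Rps3a was -0.0881 and Rps4x -0.363, and among genes that reached 10 counts in all libraries Rps4x was -0.0799. The cause of these shifts was not tested.

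With the replicate number as a block, 0 small subunit genes were called in either model, with medians of -0.455 in AngII and 0.545 in DOCA–HS rats. Of all genes, 1.14% were called higher and 0.319% lower in AngII rats, and 1.5% and 0.324% in DOCA–HS rats. For the difference 1 small subunit gene was called higher, beside 4.12% of all genes. Same-numbered libraries deviated together (correlation 0.474 in AngII and 0.321 in DOCA–HS rats), but with 2 pairs per model the numbers were not taken as pairing. Depth limits the second DOCA–HS after library most, and with 2 libraries per group a single library moved every median.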
